A study of Mus musculus with 6 samples.

Results

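The 9 genes described here encode the G1 cyclins Ccnd1, Ccnd2, Ccnd3, Ccne1 and Ccne2, the cyclin-dependent kinases Cdk2, Cdk4 and Cdk6, and the retinoblastoma protein Rb1. They were chosen by name as the core of the G1 cell cycle pathway, and each matched 1 of the 53801 gene identifiers in the count tables. RNA was sequenced from MC3T3-E1 cells, a clonal mouse line described in the labels as pre-osteoblasts and derived from calvaria. The Control group (3 libraries) carried a lentivirus with a scrambled, non-silencing hairpin. The Hdac4-knockdown group (3 libraries) carried the same vector with an Hdac4-shRNA, which the study names as Hdac4-shRNA3 for its RNA sequencing. Both groups were grown in MEM-α with serum, without an osteogenic supplement named in the labels, and were selected with 5 μg/mL puromycin for 7 days, so both carry the vector, its ZsGreen1 reporter and the resistance gene. The hairpins were driven by the U6 promoter in a stably infected population, and 1 of the 3 designed hairpins is analysed here. The labels describe 3 independent RNA samples for each group but not separate infections, so the p-values measure the spread between these RNA samples.

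In G1, D-type cyclins bind Cdk4 or Cdk6, and E-type cyclins bind Cdk2. Both kinds of complex phosphorylate Rb1, which otherwise binds E2F transcription factors and keeps the genes for DNA replication low. The D-type cyclins are the part of this machinery that responds to growth signals, and in osteoblast precursors withdrawal from the cell cycle accompanies differentiation.

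The sequences of the 2 hairpins are given first, with the places in the members' transcripts that share the stretch of the Hdac4-shRNA3 target lying opposite bases 2 to 8 of a guide strand that is its exact complement. Capitals mark those 7 letters (TTGCATG), positions 14 to 20 of the target.
Hdac4-shRNA3 target: gcatgaggcacagTTGCATGa
scrambled sequence: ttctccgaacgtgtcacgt
Hdac4 transcript ENSMUST00000097644, bases 620 to 626: tgaggcacagTTGCATGaacatatcaa
Hdac4 transcript ENSMUST00000097644, bases 6964 to 6970: cacctggaggTTGCATGgacgtacgcc
Ccnd2 transcript ENSMUST00000000188, bases 3530 to 3536: tcagcctgatTTGCATGcgtgcaccag
Ccnd3 transcript ENSMUST00000171031, bases 1375 to 1381: cactaaggggTTGCATGgtcatgaggg
Rb1 transcript ENSMUST00000022701, bases 1845 to 1851: atggaatcccTTGCATGgctttcagat
Rb1 transcript ENSMUST00000022701, bases 4391 to 4397: tcattaagttTTGCATGatcatcacac
The longest run that the longest protein-coding transcript of any of the 9 genes shared with the 21-base target was 7 to 9 bases, and that of Hdac4 shared all 21, at the first of the 2 places shown. The 7 letters were present once in Ccnd2 and Ccnd3 and 2 times in Rb1, and in none of the longest coding transcripts of the other 6 genes. They were present in 17.3% of the longest coding transcripts of the tested genes (2184 of 12590). Of the members that hold them, Ccnd2 was upregulated and Ccnd3 and Rb1 were downregulated (values below). A match of these letters is a description of the sequence only.

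The 6 libraries held between 29096544 and 31651826 counts on genes, and 14531 genes passed the filter on low counts, all 9 members among them. Values are CPM, counts scaled to a common library size after TMM normalization, given as mean ± SD of 3 libraries. A gene was called when its adjusted p-value (edgeR quasi-likelihood test, Benjamini-Hochberg over all tested genes) was below 0.05 and its log2 fold change was beyond 0.05 in size. Hdac4 itself was measured at 40.7, 40.2 and 39.9 CPM in Control and at 30.7, 28.8 and 29.5 CPM in Hdac4-knockdown, 73.7% of the Control mean (log2 fold change -0.44, SE 0.057, adjusted p = 8.98e-07 in edgeR). The osteoblast label was checked against 12 marker genes. Col1a1, the main bone collagen, was at 337.8 ± 14.4 CPM in Control and 11010 ± 326 CPM in Hdac4-knockdown. Alpl, Ibsp and Bglap were at or near 0 in both groups, with means from 0 to 0.22 CPM, and were not tested. Dmp1 (3.58 ± 0.24 to 20.9 ± 0.91 CPM), Dlx5 (0.19 ± 0.07 to 8.32 ± 1.02 CPM) and Sp7 (0.145 ± 0.083 to 2.71 ± 0.67 CPM) were called higher. So were Sparc (941.4 to 1929 CPM) and Runx2 (69.9 to 79.5 CPM), whereas Phex was not called (10.4 and 9.74 CPM). The summed level of the osteoblast list was 5707 to 5751 CPM in Control and 23360 to 24250 CPM in Hdac4-knockdown, with 7 of its 9 tested genes upregulated and 1 downregulated. Most of the higher sum was that of the collagens Col1a1 and Col1a2 (1213 ± 22.5 to 8572 ± 163 CPM), whereas Spp1 fell from 3154 ± 30.9 to 2046 ± 36.1 CPM. The summed level of 7 muscle markers was 896.8 to 932.2 CPM in Control and 127.3 to 146.4 CPM in Hdac4-knockdown, with 6 of 6 tested genes downregulated. Most of the sum in both groups, and of the difference, was Des (737.0 ± 18.5 to 101.8 ± 8.39 CPM). Over all tested genes 38% were called higher and 37.1% lower. The summed levels of neuron and glia markers (433.9 to 454.4 against 86.9 to 94.4 CPM, Snap25 and Sox10 at 0) and adipocyte markers (120.6 to 131.9 against 30.2 to 34.6 CPM) were also lower in every Hdac4-knockdown library. Of the adipocyte markers, Lpl (81.1 ± 5.19 to 23.3 ± 2.10 CPM), Pparg and Cebpa were called lower. Adipoq, Plin1 and Fabp4 were at or near 0 in both groups, with means of 0.30 CPM or less, and were not tested. Of the neuron and glia markers, Nefl went from 249.8 ± 9.20 to 0.032 ± 0.032 CPM and made up most of the difference, and S100b was called higher (0.088 ± 0.083 to 2.32 ± 0.43 CPM). Cartilage markers summed to 125.0 to 128.0 against 168.6 to 185.9 CPM, with Acan and Col9a1 at 0. Nearly all of that difference was Col2a1 (0.83 ± 0.18 to 51.1 ± 2.40 CPM), and Sox9 was not called (125.7 ± 1.66 and 127.4 ± 10.2 CPM). Endothelial, leukocyte and epithelial lists each summed to less than 10 CPM in every library. The part of these marker differences in the results below was not tested. In bulk RNA, fewer cells of a type and less RNA per cell cannot be told apart.

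Of the 9 genes, 1 was upregulated (Ccnd2), 6 were downregulated (Ccnd3, Ccne1, Ccne2, Cdk4, Cdk6 and Rb1) and 2 were not called (Ccnd1 and Cdk2). Calls were common in this comparison. Over all tested genes 75.1% were called, 38% higher and 37.1% lower, so 7 called members of 9 is close to the background. The median log2 fold change of the 9 genes was -0.45, beside 0.014 over all tested genes. The groups did not overlap for 8 of the 9 genes, all but Cdk2, beside 76.8% of all tested genes. With 3 libraries against 3, the exact two-sided permutation test cannot give a p below 0.1, and it gave 0.1 for each of those 8 genes.

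**Figure D1:**
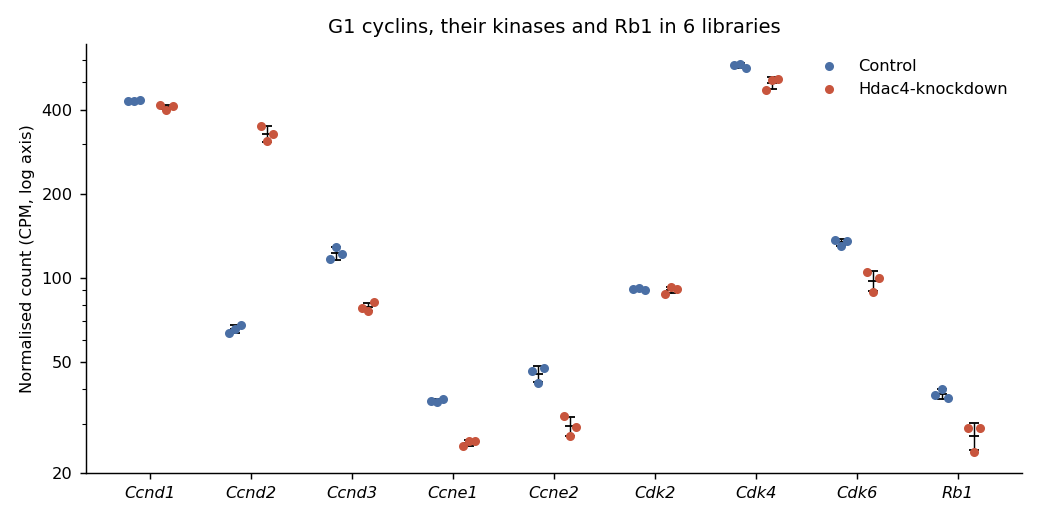
Normalised counts (CPM, log axis) of the 9 genes in the 3 Control and 3 Hdac4-knockdown libraries, with points for libraries and bars for the mean ± SD. Ccnd2 sits at 63.5 to 67.5 CPM in Control and 307.7 to 349.8 CPM in Hdac4-knockdown, and the Cdk2 libraries of the groups overlap.

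The D-type cyclins differed from each other more than any other group of the 9 genes. Ccnd2, 1 of the 3 regulatory partners of Cdk4 and Cdk6, was measured at 63.5, 65.5 and 67.5 CPM in Control and at 349.8, 307.7 and 326.2 CPM in Hdac4-knockdown. The lowest Hdac4-knockdown library was far above the highest Control library. Its mean rose from 65.5 ± 2.04 to 327.9 ± 21.1 CPM, which is 5.01-fold (log2 fold change 2.32, SE 0.050, 95% interval 2.22 to 2.43, adjusted p = 7.31e-19 in edgeR). In size this change was larger than that of 90.1% of all tested genes, and Ccnd2 ranked 153 of 14531 by p-value. It rested on 1925 to 1959 counts per library in Control and 9820 to 10822 in Hdac4-knockdown.

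Ccnd3, the D-type cyclin best known from blood cells and muscle, was measured at 116.3, 129.0 and 121.3 CPM in Control. In Hdac4-knockdown it was at 78.1, 76.1 and 81.7 CPM. All 3 Hdac4-knockdown libraries were lower than every Control library, and the mean fell from 122.2 ± 6.41 to 78.6 ± 2.83 CPM, 64.4% of Control (log2 fold change -0.64, SE 0.049, 95% interval -0.74 to -0.53, adjusted p = 4.47e-10 in edgeR). This was the lowest log2 fold change of the 9 genes in the main fit, but its interval overlapped those of Ccne1, Ccne2, Cdk6 and Rb1. Ccne2 was lower than Ccnd3 without Control replicate 2 (-0.68 against -0.60) and without Hdac4-knockdown replicate 1 (-0.68 against -0.62).

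Ccnd1, the D-type cyclin most often induced by mitogens in fibroblast-like cells, was measured at 429.5, 429.8 and 433.8 CPM in Control and at 414.1, 399.8 and 413.1 CPM in Hdac4-knockdown. The groups did not overlap, yet the means were only 431.0 ± 2.38 and 409.0 ± 8.02 CPM apart and the gene was not called (log2 fold change -0.076, SE 0.037, 95% interval -0.15 to 0.0013, adjusted p = 0.0697 in edgeR). The call and the direction depended on the setting: limma-voom and the fit without the low-count filter called Ccnd1 lower (log2 fold change -0.076 and -0.10, adjusted p = 0.0497 and 0.0259), whereas upper quartile normalization gave 0.014 (adjusted p = 0.749). Any difference in Ccnd1 was thus small, and its direction was not resolved.

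To compare the D-type cyclins with each other, CPM were divided by the kilobases of joined exons of each gene. On this scale the 3 genes summed to 111.2, 112.9 and 113.1 CPM per kb in Control and to 134.0, 126.3 and 131.7 in Hdac4-knockdown, a ratio of the means of 1.16. On this scale the total thus differed far less than Ccnd2 alone, and the size of the ratio depends on the lengths used. Ccnd2 made up 6.07, 6.16 and 6.35% of the total in the Control libraries and 27.7, 25.9 and 26.3% in the Hdac4-knockdown libraries. Its mean share was 6.19% ± 0.14 in Control and 26.7% ± 0.96 in Hdac4-knockdown (exact permutation p = 0.1, the smallest this design allows). Ccnd1 stayed the most abundant D-type cyclin in both groups, with a share of 81.4% ± 0.60 in Control and 66.5% ± 0.81 in Hdac4-knockdown, while the share of Ccnd3 was 12.4% ± 0.57 and 6.86% ± 0.21. These shares are taken within a library, so the library scaling cancels.

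The size of the shares rested on the length assigned to Ccnd3, whose joined exons span 8775 bases but whose longest coding transcript spans 2113. With transcript lengths, Ccnd1, Ccnd2 and Ccnd3 made up 62.9%, 5.64% and 31.5% in Control and 55.1%, 26.1% and 18.8% in Hdac4-knockdown. The directions were the same with both lengths, and the share of Ccnd2 was nearly so in value. The order of Ccnd2 and Ccnd3 turned around between the groups. Ccnd2 per-length levels were 0.47 to 0.52 times those of Ccnd3 in the Control libraries and 3.72 to 4.18 times in the Hdac4-knockdown libraries, with joined exons as the length. With transcript lengths the mean levels were 10.3 for Ccnd2 and 57.8 for Ccnd3 in Control and 51.8 and 37.2 in Hdac4-knockdown. The ratio of Ccnd2 to Ccnd1, with joined exons, was 0.074 to 0.078 in Control and 0.39 to 0.42 in Hdac4-knockdown.

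**Figure D2:**
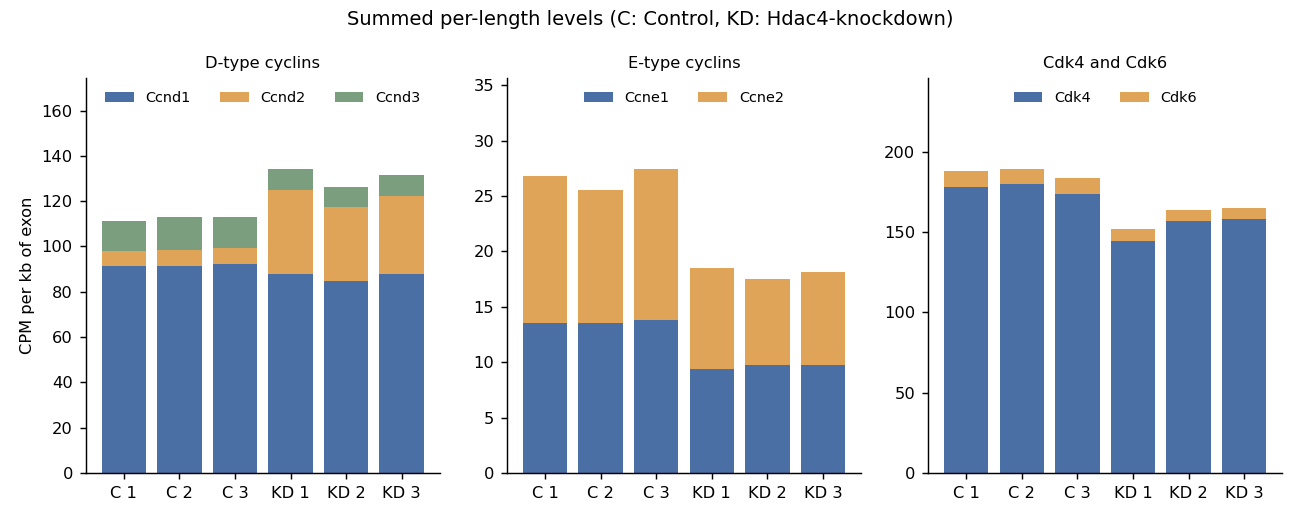
Levels per length (CPM per kb of joined exons, linear axes from 0) stacked for the D-type cyclins, the E-type cyclins and the kinases Cdk4 and Cdk6, with a bar for each library. The Ccnd2 segment takes 6.07 to 6.35% of the D-type bar in Control and 25.9 to 27.7% in Hdac4-knockdown, and the E-type bars are lower in all 3 Hdac4-knockdown libraries.

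Both E-type cyclins, which activate Cdk2 at the entry to S phase, were downregulated, and by similar amounts. Ccne1 was measured at 36.1, 36.0 and 36.7 CPM in Control and at 24.9, 26.0 and 26.0 CPM in Hdac4-knockdown. Its mean fell from 36.3 ± 0.39 to 25.6 ± 0.63 CPM, 70.7% of Control (log2 fold change -0.50, SE 0.059, 95% interval -0.62 to -0.38, adjusted p = 2.45e-07 in edgeR). The replicates of both groups lay close together and the groups were well apart.

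Ccne2 was measured at 46.2, 42.0 and 47.6 CPM in Control and at 31.9, 27.2 and 29.1 CPM in Hdac4-knockdown. The spread between replicates was wider than for Ccne1, but the groups did not overlap. The mean fell from 45.2 ± 2.92 to 29.4 ± 2.39 CPM, 65.0% of Control (log2 fold change -0.62, SE 0.067, 95% interval -0.76 to -0.48, adjusted p = 8.06e-08 in edgeR). Per kilobase, Ccne1 and Ccne2 together were at 26.6 ± 0.95 in Control and 18.04 ± 0.48 in Hdac4-knockdown, a ratio of 0.68. Ccne1 made up 51.3% ± 1.44 of this sum in Control and 53.4% ± 2.58 in Hdac4-knockdown. The shares of the groups overlapped and no shift between the 2 genes was resolved (difference 2.10 percentage points, exact permutation p = 0.3).

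Of the kinases, Cdk4 and Cdk6 were downregulated and Cdk2 was not called. Cdk4, a partner of the D-type cyclins, was measured at 578.2, 583.4 and 564.6 CPM in Control and at 469.1, 510.5 and 513.0 CPM in Hdac4-knockdown. The highest Hdac4-knockdown library was below the lowest Control library. The mean fell from 575.4 ± 9.70 to 497.5 ± 24.7 CPM, 86.5% of Control (log2 fold change -0.21, SE 0.041, 95% interval -0.30 to -0.12, adjusted p = 0.000123 in edgeR). This was the called member with the smallest change, and its interval did not overlap that of any of the other 5 downregulated members.

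Cdk6, the other partner of the D-type cyclins, was measured at 135.9, 129.7 and 135.7 CPM in Control and at 104.5, 88.8 and 99.8 CPM in Hdac4-knockdown. All Hdac4-knockdown libraries were lower. The mean fell from 133.8 ± 3.52 to 97.7 ± 8.08 CPM, 73.1% of Control (log2 fold change -0.45, SE 0.053, 95% interval -0.56 to -0.34, adjusted p = 2.37e-07 in edgeR). Per kilobase, Cdk4 and Cdk6 summed to 186.7 ± 2.82 in Control and 160.1 ± 7.20 in Hdac4-knockdown. Cdk4 took 94.9% ± 0.19 of the sum in Control and 95.6% ± 0.52 in Hdac4-knockdown, and these shares overlapped between the groups (exact permutation p = 0.2). Although the intervals of the 2 fold changes did not overlap, the ratio of Cdk6 to Cdk4 within libraries, 0.052 to 0.056 in Control and 0.040 to 0.052 in Hdac4-knockdown, therefore did.

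Cdk2, the partner of the E-type cyclins, was measured at 91.3, 91.8 and 90.1 CPM in Control and at 87.8, 92.4 and 91.0 CPM in Hdac4-knockdown. The groups overlapped (exact permutation p = 0.8). The means were 91.1 ± 0.90 and 90.4 ± 2.37 CPM, and the 95% interval of the log2 fold change, -0.10 to 0.081, held values of both signs (estimate -0.011, adjusted p = 0.832 in edgeR). The sign was positive with upper quartile normalization (0.078), with library size alone (0.046), with at least 10 counts in every library (0.027) and without Hdac4-knockdown replicate 1 (0.018), and no setting called it.

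Rb1, which encodes the pocket protein these kinases phosphorylate, was counted at 763 to 1200 reads per library. Its mean count (990.7) and that of Ccne1 (936.8) were the lowest of the 9 genes. It was measured at 38.0, 40.1 and 36.9 CPM in Control and at 29.0, 23.7 and 28.9 CPM in Hdac4-knockdown. The groups did not overlap, although Hdac4-knockdown replicate 2 stood below the other two. The mean fell from 38.4 ± 1.60 to 27.2 ± 3.03 CPM, 70.9% of Control (log2 fold change -0.50, SE 0.073, 95% interval -0.65 to -0.35, adjusted p = 4.66e-06 in edgeR).

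**Figure D3:**
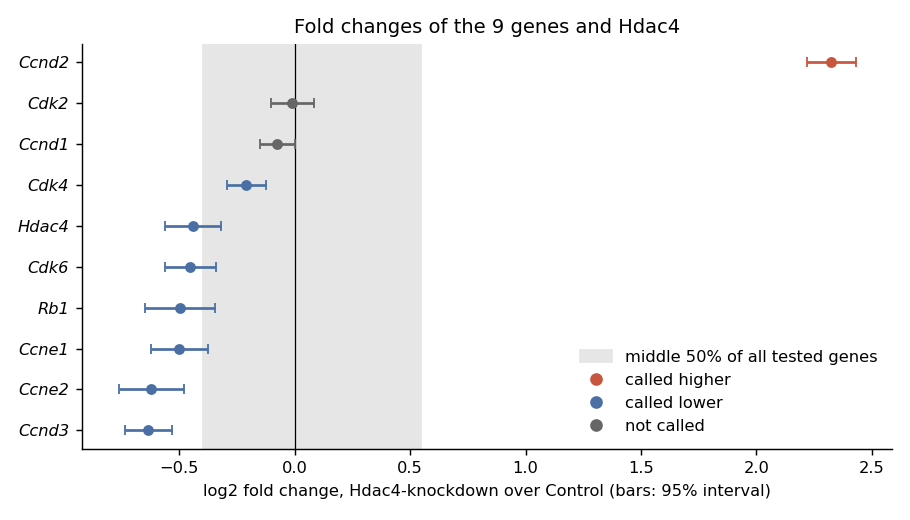
Log2 fold changes of the 9 genes and Hdac4 with 95% intervals, beside the band that holds the middle 50% of all tested genes (-0.40 to 0.55). Ccnd2 stands at 2.32 and Cdk4 at -0.21, the 5 genes Ccnd3, Ccne1, Ccne2, Cdk6 and Rb1 lie between -0.64 and -0.45, and Ccnd1 and Cdk2 were not called and took the opposite sign with upper quartile normalization.

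Ranked by CPM per kb of joined exons in Control, Cdk4 (177.1 ± 2.99) stood first and Ccnd1 (91.5 ± 0.51) second. The next 4 genes were close together, with Cdk2 at 14.6 ± 0.15, Ccnd3 at 13.9 ± 0.73, Ccne1 at 13.6 ± 0.14 and Ccne2 at 12.9 ± 0.84, and each overlapped its neighbour in the order. Cdk6 (9.56 ± 0.25), Ccnd2 (6.96 ± 0.22) and Rb1 (6.38 ± 0.27) followed without overlap between neighbours. In Hdac4-knockdown the first 2 places were the same, at 153.1 ± 7.59 for Cdk4 and 86.9 ± 1.70 for Ccnd1. Ccnd2 moved from eighth to the third place at 34.9 ± 2.24, ahead of Cdk2 at 14.5 ± 0.38. Ccne1 (9.63 ± 0.24), Ccnd3 (8.96 ± 0.32), Ccne2 (8.41 ± 0.68), Cdk6 (6.99 ± 0.58) and Rb1 (4.52 ± 0.50) came after, and of all neighbours in this group only Ccnd3 and Ccne2 overlapped. With transcript lengths, 2 genes changed place in each group. In Control, Ccnd3 stood ahead of Cdk2 (57.8 against 37.9 CPM per kb), and in Hdac4-knockdown it stood ahead of Ccne1.

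Several members share exon bases with a gene on the other strand, and the library kit did not mark strand, so strand cannot assign reads from these stretches. Reads that matched more than 1 gene were left uncounted, 5.84 to 6.51% of each table's reads. The shared bases are still part of the joined-exon lengths, and their part in the per-length levels and shares was not tested. Positions are on GRCm38. Ccnd1 (ENSMUSG00000070348, chr7:144929931-144939925, minus strand) shares 1100 of its 4709 exon bases with LTO1, which was called higher (log2 fold change 0.34, adjusted p = 0.0032 in edgeR). Cdk4 (ENSMUSG00000006728, chr10:127063534-127067920, plus strand) shares 641 of 3249 with Tspan31, which was not called (0.084). Ccne2 (ENSMUSG00000028212, chr4:11191351-11204779, plus strand) shares 609 of 3495 with Ints8, which was called lower (-0.44, adjusted p = 7.21e-08). Mean counts of Tspan31 were 2422 in Control and 2692 in Hdac4-knockdown, and those of Ints8 were 2711 and 2095. Rb1 (ENSMUSG00000022105, chr14:73183673-73325822, minus strand) shares 896 of 6015 with Rcbtb2 and Lpar6, of which Rcbtb2 was called higher (0.45) and Lpar6 lower (-0.83). Ccnd2 (ENSMUSG00000000184, chr6:127125162-127152193, minus strand) shares 740 of 9409 with Gm43126 and 9330179D12Rik, which were counted at 12.3 reads or fewer on average in both groups. Ccnd3 (ENSMUSG00000034165, chr17:47505051-47599691, plus strand) shares 361 of 8775 with Bysl, which was not called (-0.032). Cdk6 (ENSMUSG00000040274, chr5:3341485-3531008, plus strand) shares 368 of 13989 with Gm17590, and Cdk2 (ENSMUSG00000025358, chr10:128697939-128705031, minus strand) shares 34 of 6219 with Pmel. Ccne1 (ENSMUSG00000002068, chr7:38097984-38107534, minus strand) shares none. Of the 50-base stretches of the longest coding transcripts, 29.5% in Cdk4, 27.2% in Ccnd1, 21.7% in Ccnd3 and 17.4% in Ccne2 occur in a transcript of another gene on either strand, compared with 5.17% or less in the other 5 members. For Ccnd3 these include 143 stretches shared with its pseudogene Ccnd3-ps.

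Promoter sequences (250 bases before to 50 after the start, RefSeq, GRCm38.p6) were found for Ccnd3 (2 starts), Ccne1, Cdk2, Cdk4 and Cdk6. They were searched on both strands for E2F letters (TTTCCCGC, TTTCGCGC, TTTGCCGC, TTTGGCGC), the E-box CACGTG, the core of binding sites of Myc and related factors, and the GC box GGGCGG. The 3 kinases with hits for the first 2 are shown, with the matches in capitals.
Cdk4, chr10:127063343-127063534, plus strand: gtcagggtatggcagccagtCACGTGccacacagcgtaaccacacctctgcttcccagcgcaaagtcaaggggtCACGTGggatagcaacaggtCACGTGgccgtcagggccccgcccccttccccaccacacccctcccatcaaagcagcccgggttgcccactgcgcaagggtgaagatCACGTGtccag
Cdk6, chr5:3343653-3343698, plus strand: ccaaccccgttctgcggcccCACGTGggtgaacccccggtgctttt
Cdk2, chr10:128705164-128705211, minus strand: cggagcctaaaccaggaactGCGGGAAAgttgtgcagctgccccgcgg
The Cdk4 promoter held 4 E-boxes, at -172, -118, -98 and -11 from the start, and the Cdk6 promoter held 1, at -220. Of 32851 promoters in the table, 7.15% held at least 1 E-box and 8 held 4 or more. The Cdk2 promoter held the only E2F match, TTTCCCGC read on the opposite strand at -140. At least 1 of the 4 E2F sequences was present in 2.26% of promoters. GC boxes numbered 6 in Cdk2, 4 in Ccne1, 3 in Cdk4, 2 at each Ccnd3 start and 0 in Cdk6, and 35.7% of promoters held at least 1. Beside these sequences stand the measured changes of -0.21 for Cdk4, -0.45 for Cdk6 and -0.011 for Cdk2 on the log2 scale.

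Of 8 tested genes whose products activate or assemble the G1 kinases, 2 were upregulated and 4 downregulated. Their median was -0.099 on the log2 scale. The share called, 6 of 8, is that of all tested genes (75.1%). Of the CDK-activating kinase, Ccnh rose (0.29, adjusted p = 0.000108 in edgeR), Mnat1 fell (-0.18, adjusted p = 0.00943) and its catalytic subunit Cdk7 was not called (0.052). Cdc25a, the phosphatase that removes the inhibitory phosphate from Cdk2, fell (-0.43). Hsp90aa1 and Hsp90ab1, chaperones that fold Cdk4, fell (-0.89 and -0.56), while their partner Cdc37 was not called (-0.018). Cacul1, a Cdk2-associated cullin, rose (0.54).

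Among 14 genes for the turnover of D- and E-type cyclins, 10 were downregulated, 1 was upregulated and 3 were not called, with a median of -0.31. Over all tested genes 75.1% were called, 38% higher and 37.1% lower. Cks1b, a cofactor of the ubiquitin ligase with Skp2, had the lowest value (123.9 ± 0.86 to 66.7 ± 2.59 CPM, log2 fold change -0.90, adjusted p = 5.99e-13 in edgeR). Fbxw7, the receptor that marks cyclin E for degradation, was the only one that rose (26.1 ± 0.62 to 38.0 ± 1.64 CPM, log2 fold change 0.54, adjusted p = 1.24e-07 in edgeR).

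Of 14 tested genes, most of whose proteins bind Rb1 or remove its phosphates, 4 were upregulated and 6 downregulated. Beside these counts, 38% of all tested genes were called higher and 37.1% lower. The median of the 14 was -0.050, and was positive (0.039) with upper quartile normalization. Suv39h1, a histone methyltransferase recruited by Rb1, fell from 58.9 ± 2.80 to 20.9 ± 0.75 CPM (log2 fold change -1.49), and Rbak, a zinc finger protein that binds Rb1, rose from 10.3 ± 0.38 to 17.4 ± 0.78 CPM (0.76).

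The genes that E2F factors switch on at the start of S phase were mostly lower. Of 20 tested, 19 were downregulated, beside 37.1% of all tested genes. None was upregulated and Cdt1 was not called (0.073), with a median of -0.56 for the 20 genes. Over the 14 alternative settings, 18 to 19 of the 20 were downregulated and 0 to 1 upregulated. The latter was Cdt1 with upper quartile normalization, library size alone and at least 10 counts in every library. Rrm2, the regulated subunit of ribonucleotide reductase, fell from 500.0 ± 11.8 to 195.8 ± 7.06 CPM (log2 fold change -1.35), the lowest value of the list. Mcm6, a subunit of the replicative helicase, had the smallest called change (-0.13), and Pcna, the sliding clamp of DNA polymerase, lay between them (-0.61). The E2F factors and the other pocket proteins showed 10 downregulated of 12 (37.1% over all tested genes), none upregulated, with a median of -0.43. Upper quartile normalization also called E2f3 higher. E2f8, a repressor of the family, was the lowest (-1.30) and E2f4 the highest of those called (-0.21). The pocket proteins Rbl1 and Rbl2, relatives of Rb1, fell by 0.74 and 0.34 on the log2 scale, beside 0.50 for Rb1 itself.

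The mitotic cyclins and Cdk1 fell further than any G1 member. They were listed with the phosphatases Cdc25b and Cdc25c. All 7 tested genes of this list were downregulated, beside 37.1% of all tested genes. Their median was -1.60, with a range from -2.00 for Ccnb1 to -1.36 for Ccnb2. Ccna2 fell from 254.1 ± 3.34 to 96.2 ± 3.68 CPM and Cdk1 from 291.7 ± 1.65 to 96.2 ± 3.35 CPM. Every one of their values was below the lowest G1 member, Ccnd3 at -0.64. Of the 7 CDK inhibitor genes, 4 passed the filter. Cdkn1a, which encodes p21, rose from 127.5 ± 1.89 to 271.3 ± 4.94 CPM (log2 fold change 1.09, adjusted p = 3.31e-15 in edgeR), and Cdkn2d, Cdkn2c and Cdkn1b fell by 1.75, 0.38 and 0.36 on the log2 scale. Cdkn2a, whose product p16 inhibits Cdk4 and Cdk6, had no counts in any of the 6 libraries. Among 28 tested other cyclins and CDKs, most of which act outside G1, 11 were upregulated and 12 downregulated. These counts are close to the background of 38% higher and 37.1% lower. The median of these genes was -0.025, and was positive (0.064) with upper quartile normalization. They ranged from -1.01 for Cdk18 to 0.98 for Ccnt2, a partner of Cdk9 in transcription, among genes whose mean count was at least 100. The upregulation of Ccnd2, 2.32 on the log2 scale, was larger than any in these cell cycle lists.

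**Figure D4:**
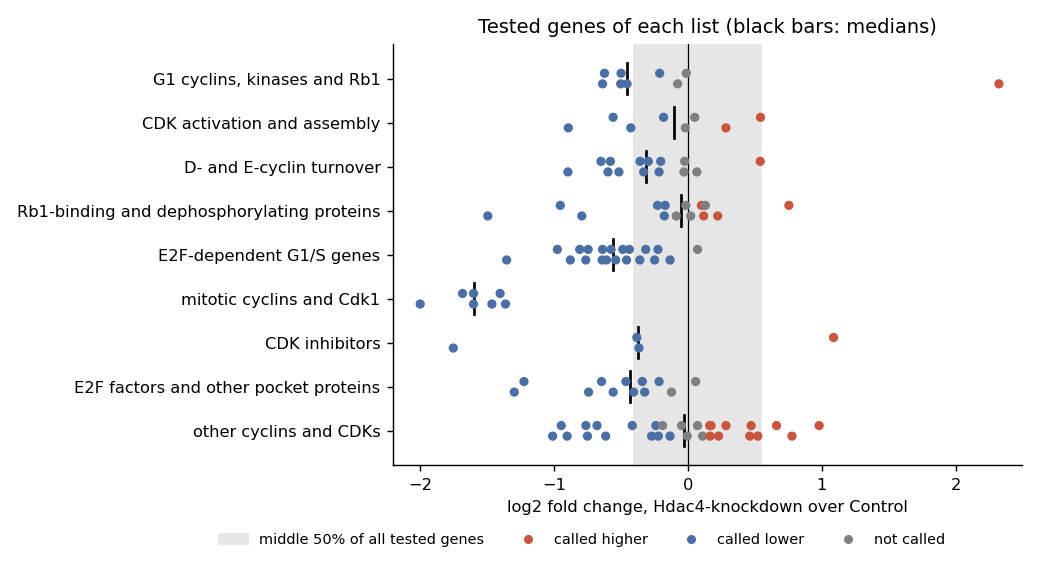
Log2 fold changes of the tested genes of each list (1 point per gene), with black bars for the medians and a grey band for the middle 50% of all tested genes (-0.40 to 0.55). The 7 mitotic genes lie between -2.00 and -1.36, the E2F-dependent genes have a median of -0.56, and Ccnd2 at 2.32 is the rightmost point.

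As a description of the pattern over the 6 libraries, the gene with the log2 CPM most like each member was sought among 10824 genes with a mean count of at least 100. For Ccnd2 this was Phf8 (Pearson r = 0.9999) among 2426 genes with r over 0.95. For Cdk2, which did not separate the groups, only 11 genes had r over 0.95, and the nearest was Abt1 (0.9893). Rb1 was most like Wbp4 (0.9976), and Cdk4 was most like Trir (0.9993). The other nearest genes were Stk3 for Ccnd1, Tnfrsf21 for Ccnd3, Gm9770 for Ccne1, Chml for Ccne2 and Capza2 for Cdk6, with r from 0.9992 to 0.9999. The 6 points fall into the 2 groups, so any gene that separates the groups scores high, and the values carry no test.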

How the data were processed

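Poly-A RNA of 6 MC3T3-E1 libraries (3 Control, 3 Hdac4-knockdown, grouped by the labels) was sequenced in pairs with an unstranded kit. The authors deposited raw counts of reads per Ensembl gene for each library. Their processing notes name FastQC, STAR 2.7.3a, HTSeq 0.12.4 and mm10. The annotation version and the strand setting are not given in the sources used here. Summary lines for reads not assigned to a gene (14.3 to 15.0% of each table's reads) were left out of library sizes and tests. Symbols were found for 53706 of 53801 identifiers in GENCODE M21 (GRCm38), which also gave exons and transcripts.

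The counts were fitted with edgeR 4.0.16 in R 4.3.3 (TMM, filterByExpr, quasi-likelihood F test, Benjamini-Hochberg adjustment, group as the only term). The study states thresholds of 0.05 for the adjusted p and for the log2 fold change, and both were used. At these thresholds the fit called 5521 genes higher and 5393 lower, more than the study reports in each direction. The calls here are therefore not those of the study. The common coefficient of variation between replicates was 4.79%, and the smallest called change was 0.088 on the log2 scale. Depth was 29096544 to 31651826 counts per library, and replicates differed by more than counting error (chi-square per degree of freedom 3.38 to 9.15), so errors are SDs between libraries. The fit was also tested on simulated data with 200 changed genes and 1 common dispersion. It recovered 103 of the 113 changed genes that were tested, and 6 of 109 calls were false. With so few changed genes, the simulation does not test the normalization where 75.1% of genes are called. Permutation tests were exact and two-sided (scipy 1.17.1), and figures were drawn with matplotlib 3.10.9.

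The members and the gene lists were chosen with earlier results of these data known. Named were the 9 members, Hdac4, the called gene with the lowest and the highest log2 fold change of each list that is not a marker list (at least 100 counts on average), Pcna, Cdkn1a, Ccna2, Ccnb1 and Cdk1, and the most alike gene of each member. In lists of 8 or fewer, any tested gene could be named. Cdt1, E2f3, Rbl1, Rbl2, the marker genes and the genes that overlap a member were named after their values were seen. Alternatives were DESeq2 size factors, upper quartile normalization or library size alone, 2 other filters, DESeq2 1.42.0, limma-voom (limma 3.58.1), a replicate block, fold thresholds of 0.5 and 1, other lengths, and leaving out each library.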

Additional observations from a re-analysis of the deposited data

Results flagged for a closer look

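The share of reads that fell outside annotated genes, which no comparison above uses, was 4.79% on average in Hdac4-knockdown and 3.28% in Control. Every Hdac4-knockdown library (4.64 to 5.07%) was above every Control library (3.17 to 3.41%). The share of reads left uncounted because they matched more than 1 gene was 5.84 to 5.92% in Hdac4-knockdown and 6.36 to 6.51% in Control. The part of these shares in the levels of the members that overlap other genes was not tested.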

How the results depend on the processing

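In the 14 alternative fits (3 normalizations, 2 filters, DESeq2, limma-voom, the replicate block and 6 fits without 1 library), Ccnd2 kept its call and direction with log2 fold changes from 2.28 to 2.41, and so did Ccnd3 (-0.68 to -0.55), Ccne1 (-0.53 to -0.41), Ccne2 (-0.68 to -0.53), Cdk4 (-0.24 to -0.12), Cdk6 (-0.50 to -0.36) and Rb1 (-0.54 to -0.41). Ccnd1 was not called in 12 of them. It was 0.014 with upper quartile normalization, and was called lower without the filter (-0.10) and with limma-voom (-0.076). Cdk2 was called in none. It was 0.078 with upper quartile normalization, 0.046 with library size alone, 0.027 with at least 10 counts in every library, and -0.032 to 0.018 when a library was left out, positive without Hdac4-knockdown replicate 1. Upper quartile normalization moved the median of all genes to 0.10. A fold threshold of 0.5 left 3579 genes higher and 2879 lower, with 3 members lower, and a threshold of 1 left 2397 and 1543, with 0 members lower. Ccnd2 passed both. The replicate block gave 5523 genes higher and 5441 lower and changed no call of a member. The correlations of same-numbered deviations were -0.011, 0.027 and 0.017, so no shared effect of the replicate number was seen. The labels do not say whether the numbers pair the groups.

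With transcript lengths, the Hdac4-knockdown minus Control share was -7.71 percentage points for Ccnd1 and -12.8 for Ccnd3, and 2 members changed place in each per-length order. With counts not divided by length it was -19.5 for Ccnd1, 29.6 for Ccnd2, -10.1 for Ccnd3 and 2.42 for Cdk4. The length that the expressed isoforms of Ccnd3 have is not known from gene counts.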
